A study of Mus musculus with 48 samples.

Results

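Histidine 5′ tRNA fragments are short RNAs that begin at the 5′ end of a histidine tRNA. They were taken from the deposited annotation as fragments typed 5′-tRF or 5′-half whose every listed tRNA location is a histidine tRNA, and were selected on their total counts, with a minimum of 10 over all 48 libraries. The selection gave 72 fragments of 13007 in the table, or of 3302 with at least 10 counts. Another 49 histidine 5′ fragments were below the minimum, with 145 counts in all. At the edge of the minimum, 1 fragment had a total of 10 counts, 2 had 11 and 2 had 12, whereas 2 that were left out had 8 and 3 had 9.

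The libraries hold short RNA of 2 ganglia of Balb/c mice aged 2.5 months. The superior cervical ganglion (SCG) is a sympathetic ganglion, and the trigeminal ganglion (TG) carries the sensory neurons of the face. Mice received 0.2 mL saline intraperitoneally, either alone or with lipopolysaccharide (LPS) of E. coli O55:B5 at 2.5 mg/kg, a bacterial cell wall component that provokes systemic inflammation, and tissue was taken after 4 h, 24 h or 7 d. Each of the 12 groups of ganglion, treatment and time held 4 libraries, 2 from females and 2 from males, and both ganglia of a kind from 1 mouse went into a sample. All groups share the strain and the injected volume, and no genetic change is named. Of the 96 samples 48 were sequenced, and the labels do not link libraries of different ganglia to a shared mouse.

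A tRNA folds into a cloverleaf whose middle arm ends in the anticodon loop. Ribonucleases such as angiogenin cut that loop under stress and leave a 5′-half and a 3′-half, and other cuts give shorter pieces. Histidine tRNA is unusual in that a guanosine is added to its 5′ end after transcription, at the position called -1, by the enzyme THG1L (tRNA-histidine guanylyltransferase), and histidyl-tRNA synthetase recognises the tRNA by it. The first base of its anticodon is a guanosine that mammals modify to queuosine.

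The annotation assigns all 72 fragments to tRNA-HisGTG and lists no mitochondrial location for any. Some locations in that annotation lie on chromosomes that the mouse lacks, and a match to mouse mitochondrial tRNA was not checked. The sequences below show the most abundant fragment for each start and type, together with abundant fragments that start with -1G, since the results turn on where a fragment starts and on its last base. Capitals mark the base at -1 and any base of the anticodon, which lies at positions 34 to 36 counted from +1, the base after -1. The sequences are those of the deposited annotation.
-1G, last base 30, tRF-31-6SXMSL73VL4YD: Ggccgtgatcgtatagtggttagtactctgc
-1G, last base 31, tRF-32-6SXMSL73VL4YK: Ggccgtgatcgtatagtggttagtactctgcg
-1G, last base 32, tRF-33-6SXMSL73VL4YDN: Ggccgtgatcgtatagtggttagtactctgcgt
-1G, last base 33, tRF-34-6SXMSL73VL4YHE: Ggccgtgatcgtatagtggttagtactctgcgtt
-1G, last base 34, tRF-35-6SXMSL73VL4YMY: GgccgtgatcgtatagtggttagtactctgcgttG
-1G, last base 35, tRF-36-6SXMSL73VL4YMYE: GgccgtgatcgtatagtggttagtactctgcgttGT
+1, last base 31, tRF-31-PW5SVP9N15WV0: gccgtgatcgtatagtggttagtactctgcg
+1, last base 33, tRF-33-PW5SVP9N15WV0E: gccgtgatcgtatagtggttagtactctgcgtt
-1T, last base 31, tRF-32-XSXMSL73VL4YK: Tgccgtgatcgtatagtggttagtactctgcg
-1T, last base 34, tRF-35-XSXMSL73VL4YMY: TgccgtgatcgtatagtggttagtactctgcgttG
-1A, last base 31, tRF-32-FSXMSL73VL4YK: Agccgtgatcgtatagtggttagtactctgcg
-1A, last base 34, tRF-35-FSXMSL73VL4YMY: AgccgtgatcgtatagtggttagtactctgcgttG
-1C, last base 31, tRF-32-LSXMSL73VL4YK: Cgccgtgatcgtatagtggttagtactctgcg
-1C, last base 34, tRF-35-LSXMSL73VL4YMY: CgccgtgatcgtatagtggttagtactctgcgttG
The lines differ in 2 ways only, the base or absence of a base at -1 and the position of the last base. Of the 72 fragments, 21 were typed 5′-half and 51 5′-tRF, and lengths ran from 16 to 50 bases. Of the 72, 6 carried the substitution G4A against the main sequence, 1 of them also T32C, and had 449 counts in all.

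The fragments that carry the added guanosine held most of the counts. The 72 fragments had 1629196 of 12563678 tRNA fragment counts, or 13.0%, and 5 of them, all starting with -1G and ending at bases 30 to 34, had 85.9% of those counts. By start, 15 fragments with -1G had 87.6% of the counts, 10 starting at +1 had 7.30%, 21 with -1T had 4.04%, 20 with -1A had 1.00% and 6 with -1C had 0.0447%. Summed over both ganglia, the most abundant fragment ended at the first anticodon base, with 425449 counts for tRF-35-6SXMSL73VL4YMY. The fragment 1 base shorter, tRF-34-6SXMSL73VL4YHE, had 297824. That order held in SCG (means of 63280 and 16144 TMM-scaled CPM) and was the other way in TG (10470 and 41620, n = 24 each). A count is of 1 exact sequence, so no correction for length applies between fragments.

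**Figure D1:**
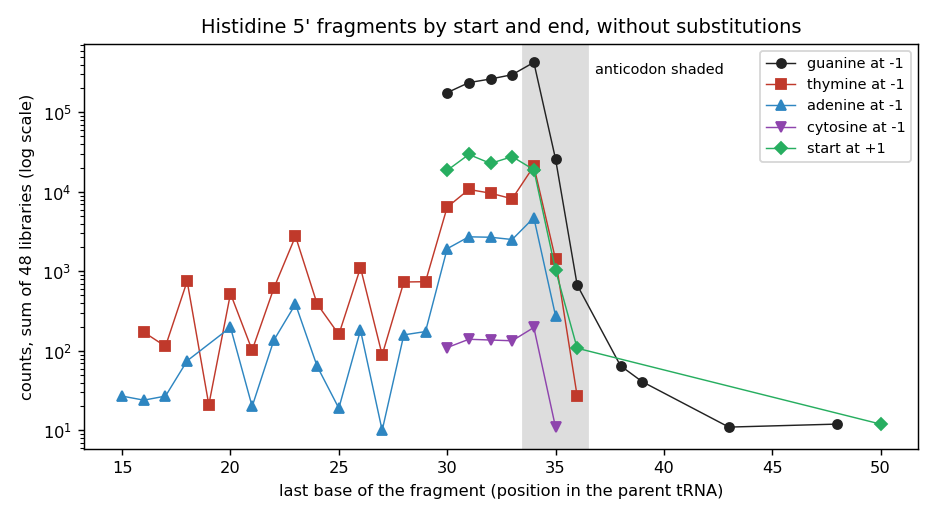
Counts summed over 48 libraries (log axis) against the last base of the fragment, with 1 line per start and without the 6 fragments that carry substitutions. Fragments with guanine at -1 and fragments starting at +1 begin at last base 30, whereas those with thymine or adenine at -1 run down to last base 16 and 15.

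Among the selected fragments, short ones were found almost only with thymine or adenine at -1. Among fragments ending before base 30, 14 started with -1T, 14 with -1A and 1 with -1G, and none started with -1C or at +1. These held 12.6% of the -1T counts and 9.19% of the -1A counts, against 24 of 1427317 counts for -1G. Those 24 counts belonged to a fragment with G4A. The main sequence with -1G stopped at base 30, where it had 177112 counts, and so did the +1 start, with 18636. Fragments with any listed location outside histidine tRNA were not selected, and the part of that rule in this pattern was not tested. The most abundant fragment ending before base 30, the -1T fragment tRF-24-XSXMSL732Z, ended at base 23 and had 2768 counts.

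The total of tRNA fragment counts per library ran from 61218 to 1511191, with a median of 204269, and the miRNA total of the same libraries from 1774047 to 5592766. As a check of the labels, the miR-183 cluster, which marks sensory neurons, was summed in miRNA CPM. Here each count is scaled by its library's TMM-scaled total of the miRNAs left after a filter on low counts. The cluster's sum lay between 57037 and 88281 in TG and between 221 and 21076 in SCG, and all 3 of its miRNAs were detected in every library. The sum of muscle miRNAs ran from 4126 to 15122 in TG and from 189 to 94291 in SCG, with the highest value in SCG 4 h saline replicate 1. The SCG 7 d LPS library of replicate 2 stood apart in leukocyte miRNA, at 9670 CPM beside an SCG median of 408. It also had the highest SCG sums for neuron (35885), erythroid (2551) and LPS response miRNAs (40935). The neuron list was split in this library. There miR-128 was at its SCG maximum (35652), whereas miR-9 (230) and miR-124 (3.58) were at their SCG minimum. The library's sums for caudal Hox-cluster (12979), epithelium and pituitary (14307) and myelinating glia miRNAs (40.0) were the lowest in SCG. Library names are numbered 1 to 24 in SCG and 25 to 48 in TG, and anything that follows this numbering cannot be told apart from the ganglion. The sums of marker miRNAs also differed for myelinating glia (1853 to 3902 CPM in TG, 40.0 to 1007 in SCG). The sum for epithelium and pituitary (4031 to 32195 in TG, 14307 to 46019 in SCG) was mostly miR-7a, with medians of 5300 in TG and 35246 in SCG. The rest of that list was split. By medians in TG and SCG, miR-200a (184 and 8.10), miR-200b (186 and 10.7) and miR-205 (1.99 and 0.438) were higher in TG. Lower in TG were miR-203 (61.1 and 291) and miR-375 (146 and 291). Average RNA yield per microlitre was 193 ng in TG and 64 ng in SCG per the labels. The part of these measures in any ganglion difference was not tested.

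The share of histidine 5′ fragments among all tRNA fragment counts overlapped between the ganglia. In SCG it was 13.5% ± 5.30 (SD, n = 24), from 5.99% to 29.0%, and in TG 10.9% ± 2.51 (SD, n = 24), from 7.73% to 16.4%. The 95% Wilson interval of a single library's share was at most 0.566 percentage points wide, which covers counting error only. The highest SCG libraries were those of LPS replicate 4 at 4 h, with 29.0%, and LPS replicate 1 at 7 d, with 21.4%. Reads without molecular identifiers are not independent molecules, and fewer cells of a type cannot be told apart from less RNA per cell in such bulk samples.

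**Figure D2:**
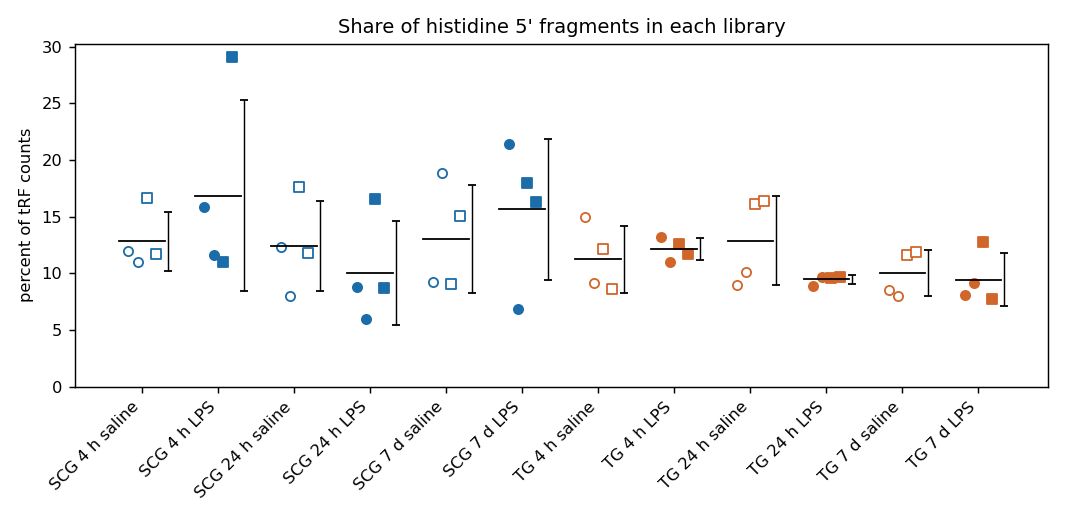
Percent of each library's tRNA fragment counts that are histidine 5′ fragments, for the 12 groups of 4 libraries. Open symbols are saline and filled LPS, circles female and squares male, the short line is the mean and the bar the SD; the groups overlap, and the SCG values spread more widely than those of TG.

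The last base of the fragments differed between the ganglia. In SCG, 39.3% ± 8.64 (SD, n = 24) of histidine 5′ counts ended at base 34, the first anticodon base, and 11.6% ± 4.76 at base 33, the base before the anticodon. In TG the order was the other way, with 13.4% ± 6.35 (SD, n = 24) at base 34 and 51.1% ± 9.51 at base 33. Fragments ending at bases 30 to 32 were 47.3% ± 10.6 of the SCG counts and 29.9% ± 4.22 of the TG counts, and those ending at base 35 were 1.06% ± 0.872 and 4.46% ± 1.53.

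The 2 most abundant fragments, which differ by that 1 base, moved in opposite ways. For tRF-35-6SXMSL73VL4YMY (-1G, last base 34) the saline libraries had a lowest, median and highest level of 29237, 53028 and 102286 TMM-scaled CPM in SCG and of 5579, 9005 and 28832 in TG. TMM sets each library's size by the trimmed mean of its log ratios to a reference library. All 12 TG saline libraries were below all 12 SCG saline libraries, and after LPS 10 of 12 were below every SCG library. The saline fold change was -2.37 on the log2 scale (TG over SCG, SE 0.284, adjusted p 2.8e-07). For tRF-34-6SXMSL73VL4YHE (-1G, last base 33) the values were 8187, 14228 and 23767 in SCG and 20839, 35416 and 105451 in TG. Of the 12 TG libraries, 8 were above every SCG library, and the log2 fold change was 1.29 (SE 0.261, adjusted p 2.45e-04).

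**Figure D3:**
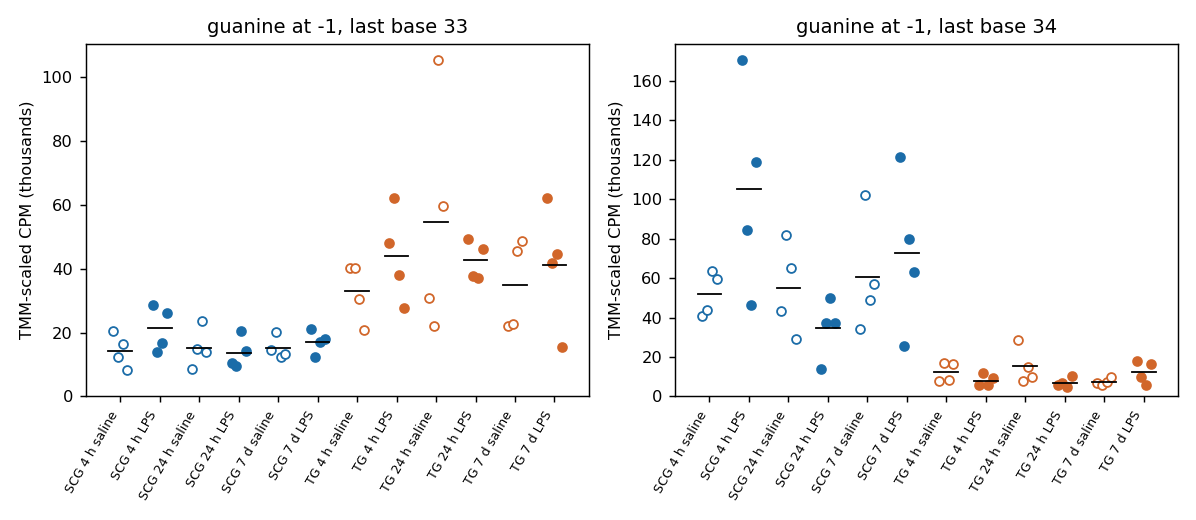
TMM-scaled CPM (in units of 1000) of the fragments with guanine at -1 that end at base 33 (left) and base 34 (right) in each library of the 12 groups. Blue is SCG and orange TG, open symbols are saline and filled LPS, and the line is the mean of 4; TG is the higher at base 33 and the lower at base 34.

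Of the 72 fragments, 34 passed the filter on low counts in the comparison of the ganglia after saline and 38 did not. Of the 34, edgeR's quasi-likelihood test called 24 at an adjusted p under 0.05 (70.6%), with 8 higher and 16 lower in TG, over 24 libraries with time and sex in the model. Across all 571 fragments tested, 42.7% were called, 20.8% higher and 21.9% lower in TG. The members' median log2 fold change was -0.48, beside -0.04 for all fragments. With total counts in place of TMM, which moved the median of all fragments to 0.67 and that of the members to 0.22, 22 were called (64.7%), 12 higher and 10 lower, beside 50.1% of all fragments. The fragments that passed did so partly through the ganglion where they are high, so their count does not speak for the 72.

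Among the tested fragments the direction went with the last base, whatever the start. At base 33, all 4 tested starts (-1G, -1T, -1A and +1) were higher in TG, with log2 fold changes of 1.29 to 1.67, and at base 35 all 4 were higher, by 1.19 to 1.64. At base 34 all 4 were lower, from -2.37 to -1.84. All 4 were also lower at base 30 (-2.40 to -1.42), at base 31 (-1.70 to -0.97) and at base 32 (-1.36 to -0.61). None of the 9 tested fragments ending before base 30 was called (-0.68 to 0.34), nor was the 1 ending at base 36 (-0.27, adjusted p 0.523). With total counts as library size, the calls at bases 33, 34 and 35 were the same in number, whereas base 30 kept 3 calls, base 31 kept 2 and base 32 kept 1. At base 32, tRF-33-XSXMSL73VL4YDN changed sign with total counts (log2 0.0445, adjusted p 0.875). That scaling also added 4 calls higher in TG among the short -1T fragments, tRF-27-XSXMSL73VL3 (1.13), tRF-25-XSXMSL73VL (1.01), tRF-23-XSXMSL730H (0.82) and tRF-24-XSXMSL732Z (0.72), with edgeR adjusted p-values of 0.00513 to 0.0426.

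The smallest adjusted p-values after those above belonged to fragments with rarer starts. The -1A fragment ending at base 34, tRF-35-FSXMSL73VL4YMY, had a median of 624 CPM in SCG and 101 in TG after saline (log2 -2.31, SE 0.306, adjusted p 1.26e-06). The +1 fragment ending at base 34, tRF-34-PW5SVP9N15WV2P, had medians of 1771 and 452 (log2 -1.96, SE 0.270, adjusted p 2.08e-06). The -1T fragment tRF-35-XSXMSL73VL4YMY had 2286 and 554 (log2 -1.84, SE 0.279, adjusted p 6.98e-06). These 3 lack the added guanosine and nevertheless lay on the same side as the -1G fragment of the same last base.

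Among the fragments that rose in TG, the +1 fragment ending at base 33, tRF-33-PW5SVP9N15WV0E, had medians of 881 CPM in SCG and 2925 in TG (log2 1.67, SE 0.278, adjusted p 2.51e-05). The -1T fragment of that last base, tRF-34-XSXMSL73VL4YHE, had 287 and 1048 (log2 1.59, SE 0.251, adjusted p 1.21e-05). At base 35, the -1T fragment tRF-36-XSXMSL73VL4YMYE had 48.9 and 195 (log2 1.64, SE 0.286, adjusted p 4.29e-05), and the -1G fragment tRF-36-6SXMSL73VL4YMYE had 1098 and 2999.9 (log2 1.19, SE 0.253, adjusted p 3.86e-04).

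Among the shorter -1G fragments, tRF-33-6SXMSL73VL4YDN (last base 32) had medians of 26162 CPM in SCG and 11706 in TG (log2 -1.36, SE 0.246, adjusted p 5.94e-05), and tRF-32-6SXMSL73VL4YK (last base 31) had 15275 and 6171 (log2 -1.70, SE 0.345, adjusted p 2.51e-04). The fragment ending at base 30, tRF-31-6SXMSL73VL4YD, ran from 2268 to 76164 in SCG and from 1267 to 6568 in TG, and its log2 difference was -2.40 (SE 0.493, adjusted p 3.06e-04). The ranges of the ganglia overlapped, and the SCG maximum was that of replicate 3 at 24 h. Without that library, 3 other fragments ending at base 30 moved by over 1.5 times, tRF-30-PW5SVP9N15WV from -1.78 to -1.12, tRF-31-FSXMSL73VL4YD from -2.13 to -1.30 and tRF-31-XSXMSL73VL4YD from -1.42 to -0.84, the last with an edgeR adjusted p of 0.0524.

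The comparison was repeated on the 24 LPS libraries, which come from other mice; it was added after the data were seen. Again 34 fragments were tested, and 27 were called (79.4%), 8 higher and 19 lower in TG, beside 50.3% of 599 fragments in all, 26.7% higher and 23.5% lower. With total counts the members called were 22 (64.7%), 10 higher and 12 lower, beside 44.9% of all fragments. The calls at bases 31, 33, 34 and 35 were then the same in number, base 30 kept 3 and base 32 kept 1, and tRF-37-6SXMSL73VL4YMYP (1.12) and tRF-29-XSXMSL73VLH3 (1.57) were called higher. Bases 33 and 35 were again higher for all 4 starts (1.32 to 2.04 and 1.48 to 2.37) and bases 30, 31, 32 and 34 lower for all 4 (base 34, -2.86 to -2.35). Of the 9 tested fragments ending before base 30, 3 were called lower. The smallest adjusted p-values were those of 3 fragments ending at base 34, tRF-35-FSXMSL73VL4YMY (log2 -2.86, SE 0.297, adjusted p 1.3e-08), tRF-35-6SXMSL73VL4YMY (-2.82, SE 0.318, adjusted p 5.01e-08) and tRF-35-XSXMSL73VL4YMY (-2.35, SE 0.291, adjusted p 2.22e-07). Next came tRF-33-PW5SVP9N15WV0E at base 33 (2.04, SE 0.254, adjusted p 2.33e-07) and tRF-36-XSXMSL73VL4YMYE at base 35 (1.91, SE 0.255, adjusted p 7.37e-07). Without SCG 7 d LPS replicate 2, the library high in leukocyte miRNA, 29 of 39 were called (74.4%), beside 47.5% of all fragments. The 3 short fragments called lower were tRF-24-FSXMSL732Z (log2 -1.05, adjusted p 0.00563), tRF-24-XSXMSL732Z (-0.59, adjusted p 0.0219) and tRF-19-XSXMSL24 (-0.87, adjusted p 0.0354). None of these 3 was called with total counts, and the call of the last also ended without any 1 of 11 libraries (-0.85 to -0.73, edgeR adjusted p 0.0520 to 0.0844).

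**Figure D4:**
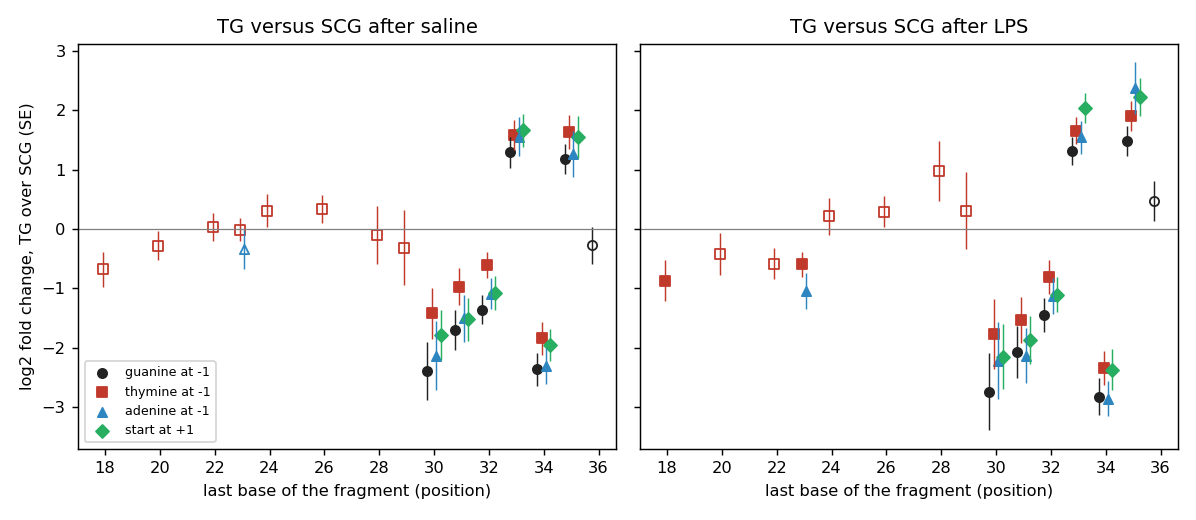
Log2 fold change of TG over SCG with its SE for each tested fragment, by its last base, after saline (left) and after LPS (right). Symbols mark the start, filled where the adjusted p was under 0.05 and open otherwise; values at bases 33 and 35 lie above 0 and those at bases 30, 31, 32 and 34 below 0 for each tested start.

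The ratio of counts ending at base 33 to counts ending at base 34 needs no scaling between libraries, and it separated the ganglia. It ran from 0.134 to 0.774 in the 24 SCG libraries, with a median of 0.261, and from 0.963 to 8.87 in the 24 TG libraries, with a median of 4.68. No TG library was at or below an SCG library. This ratio was chosen after its values were seen and is given with no test. Within a start, -1G ran from 0.138 to 0.746 in SCG and from 0.938 to 8.51 in TG, -1T from 0.0610 to 0.325 and from 0.457 to 4.59, and +1 from 0.152 to 2.15 and from 2.49 to 21.98, with no overlap. For -1A the ranges overlapped, and 22 of 24 TG libraries were above every SCG library.

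**Figure D5:**
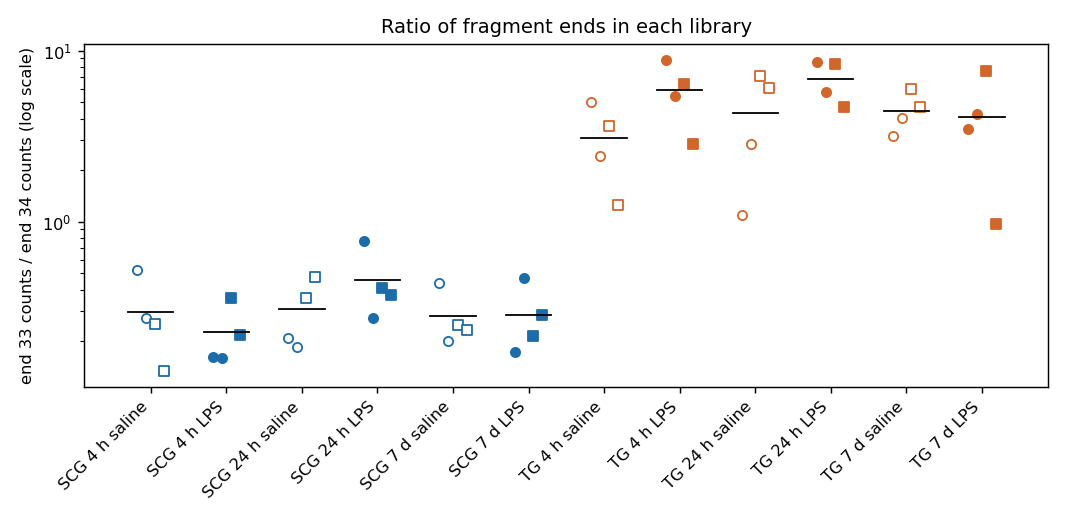
Ratio of histidine 5′ counts ending at base 33 to those ending at base 34 (log axis) in each library of the 12 groups. Blue is SCG and orange TG, open symbols are saline and filled LPS, circles female and squares male, and the line is the group mean; SCG libraries lie below 0.774 and TG libraries above 0.963.

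The TG libraries nearest to SCG were LPS replicate 4 at 7 d, with a ratio of 0.963, saline replicate 1 at 24 h, with 1.10, and saline replicate 4 at 4 h, with 1.26. In SCG the highest ratio was 0.774, in LPS replicate 1 at 24 h. The SCG 4 h saline library with the highest muscle miRNA, replicate 1, had 0.520, and SCG 24 h saline replicate 1, with the highest sensory neuron miRNA in SCG, had 0.208. Without the former and the other muscle-rich SCG 4 h saline library 23 of 35 tested fragments were called (65.7%), 8 higher and 15 lower in TG, beside 38.2% of all fragments, and the members' median was -0.19 in place of -0.48. The part of muscle or other non-neuronal tissue in the ratio was not tested.

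LPS against saline gave no called fragment in either ganglion at any time. In SCG 34 fragments were tested at each time, and edgeR's adjusted p was under 0.05 for 0 of them, as for 0 of 544 fragments in all (0%). In TG 34 were tested and 0 called, beside 0 of 559 (0%). At an unadjusted p under 0.05, the members in SCG numbered 4 at 4 h, 0 at 24 h and 2 at 7 d, and in TG 0 at 4 h, 6 at 24 h and 1 at 7 d. DESeq2 called no member in any of the 6 comparisons. Over all fragments the numbers at an unadjusted p under 0.05 were 39, 26 and 27 in SCG and 21, 45 and 38 in TG, in order of time. The difference of the LPS effect between TG and SCG was tested in the fit of all 48 libraries, in which 38 fragments passed the filter. There 0 were called at 4 h, 24 h and 7 d, beside 0 of 729 in all (0%), and DESeq2 called no member. Over all 729 fragments, 29, 35 and 29 had an unadjusted edgeR p under 0.05, in order of time. Of the 38 members, 1 was under that value at each time. These were tRF-35-6SXMSL73VL4YMY at 4 h (log2 -1.63, SE 0.680, edgeR adjusted p 0.981), tRF-24-XSXMSL732Z at 24 h (-1.08, SE 0.509, adjusted p 0.858) and tRF-21-FSXMSL73E at 7 d (-3.33, SE 1.155, adjusted p 0.964). Next in order were tRF-32-XSXMSL73VL4YK (-1.60) and tRF-34-PW5SVP9N15WV2P (-1.41) at 4 h, tRF-31-FSXMSL73VL4YD (2.62) and tRF-30-XSXMSL73VL4Y (2.44) at 24 h, and tRF-23-XSXMSL730H (-1.16) and tRF-37-6SXMSL73VL4YMYP (1.37) at 7 d.

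Levels in SCG at 4 h varied widely between libraries. The summed histidine 5′ level was 159849, 113046, 189570 and 132180 TMM-scaled CPM in the 4 saline libraries and 591622, 218165, 122705 and 503556 in the 4 LPS libraries. On this scale LPS replicates 1 and 4 were high and replicate 3 lay within the saline range, so the groups overlapped. All tRNA fragments moved in the same libraries, with 317, 127, 68.0 and 148 tRNA fragment counts per 1000 miRNA counts in the LPS libraries and 101, 57.5, 83.0 and 79.9 in the saline libraries, and their part in the members' levels was not tested. The level of LPS replicate 1 rests on a TMM factor of 0.268, beside 0.759 to 0.982 in the saline libraries. Its histidine 5′ share of tRNA fragment counts was 15.8%, within the saline range of 10.951% to 16.65%. The shares of LPS replicates 2 and 3 also lay within that range, and only that of replicate 4, 29.0%, was above it. The members' median log2 fold change was 0.52, beside -0.05 for all fragments, and it was -0.18 with total counts as library size, which moved the median of all fragments to -0.62. Without LPS replicate 1 it was 0.28.

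The members with the smallest unadjusted p in SCG at 4 h were tRF-33-XSXMSL73VL4YDN, tRF-32-XSXMSL73VL4YK and tRF-32-6SXMSL73VL4YK. The first, with -1T and last base 32, had 863, 652, 1068 and 897 CPM after saline and 3180, 1401, 896 and 2040 after LPS. Its log2 fold change was 0.99 (SE 0.408) with an edgeR adjusted p of 0.578. The other 2, both ending at base 31, had log2 fold changes of 1.63 (SE 0.726) and 1.61 (SE 0.757), each with an edgeR adjusted p of 0.651.

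In SCG at 24 h the smallest unadjusted p-values belonged to tRF-27-XSXMSL73VL3, tRF-25-XSXMSL73VL and tRF-33-6SXMSL73VL4YDN, with log2 fold changes of 0.73, 0.88 and -0.70 and an edgeR adjusted p of 0.941 each. At 7 d they belonged to tRF-37-6SXMSL73VL4YMYP, tRF-33-XSXMSL73VL4YDN and tRF-25-XSXMSL73VL, with log2 fold changes of -1.43, 0.91 and -1.01 and an edgeR adjusted p of 0.831 each. The first, a -1G fragment that holds the whole anticodon, had 88.5, 182, 43.2 and 69.0 CPM after saline and 46.1, 13.8, 57.7 and 28.3 after LPS, so the groups overlapped. The members' median log2 fold change was -0.20 at 24 h and 0.32 at 7 d, beside 0.08 and 0.10 for all fragments. Neither median kept its sign under every alternative. At 24 h it was 0.10 with total counts and 0.01 without saline replicate 3, and ran from -0.58 to 0.01 with 1 library left out. At 7 d it ran from -0.0033 without LPS replicate 1 to 0.51 without LPS replicate 2, the leukocyte-rich library.

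In TG the members at an unadjusted p under 0.05 were most numerous at 24 h, with 17.6% of the 34, beside 8.05% of all fragments. The abundant -1G fragment ending at base 34, tRF-35-6SXMSL73VL4YMY, had 28832, 7725, 14916 and 9664 CPM after saline and 6071, 7066, 4622 and 10194 after LPS. Its log2 fold change was -1.16 (SE 0.437) with an edgeR adjusted p of 0.507, and the groups overlapped. The -1T fragment tRF-24-XSXMSL732Z had 312, 330, 217 and 362 after saline and 153, 196, 211 and 202 after LPS, a log2 difference of -0.70 with SE 0.250 and edgeR adjusted p 0.507. In TMM-scaled CPM every LPS library was below every saline library, with 211 and 217 as the nearest values. Without TMM the groups overlapped. Saline replicate 3 had 44 of 245206 tRNA fragment counts, a smaller share than the 49 of 248383 in LPS replicate 4. The -1A fragment tRF-35-FSXMSL73VL4YMY had a log2 fold change of -1.16, with SE 0.486 and edgeR adjusted p 0.523.

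The share of histidine 5′ counts that start at +1 was 12.9%, 13.6%, 13.2% and 7.197% in the TG LPS libraries at 24 h and 7.63%, 7.96%, 5.82% and 4.81% in the saline libraries. LPS replicate 4 fell within the saline range, so the groups overlapped. The members' median log2 fold change in TG was 0.18 at 4 h, -0.03 at 24 h and 0.25 at 7 d, beside -0.03, -0.02 and 0.02 for all fragments. None of the 3 kept its sign under every alternative. With 1 library left out they ran from -0.04 (without LPS replicate 2) to 0.32 at 4 h, from -0.20 to 0.20 at 24 h and from 0.03 (without LPS replicate 1) to 0.46 at 7 d, where total counts gave -0.16. At 4 h the smallest unadjusted p belonged to tRF-33-PW5SVP9N15WV0E (log2 0.78, SE 0.412, edgeR adjusted p 0.934), tRF-31-XSXMSL73VL4YD (0.78) and tRF-37-6SXMSL73VL4YMYP (0.74). At 7 d it belonged to tRF-24-XSXMSL732Z (log2 -0.53, SE 0.251, edgeR adjusted p 0.710), tRF-23-XSXMSL730H (-0.85) and tRF-35-PW5SVP9N15WV7W (0.74).

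Other fragments of the same tRNA were rarer. No histidine 3′-half had 10 counts, and the 2 histidine 3′-tRFs that did failed the filter on low counts. Of 87 internal histidine fragments, 5 were tested between the ganglia after saline and 0 were called by edgeR. The histidine 5′ share of 13.5% in SCG and 10.9% in TG compares with 0.0779% and 0.118% for the internal fragments. Among 5′ fragments of other tRNAs tested between the ganglia after saline, 4 of 27 glycine fragments were higher and 8 lower in TG, 5 and 22 of 44 glutamate fragments, 1 and 6 of 27 lysine fragments and 1 and 2 of 12 valine fragments.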

How the data were processed

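Small RNA libraries of 24 SCG and 24 TG samples were analysed. The deposited tables hold raw counts per tRNA fragment and per miRNA made by the authors; fragment names, types, sequences and tRNA locations come from their annotation. Per the submitters' processing notes, FastQC 0.11.9 and the build GRCm39 were used, and the tool that counted fragments is not given in the sources used here. Of 13007 annotated fragments, 346 have a location on chromosome 20, 21 or 22, which the mouse lacks, so no genome position is given. No column lacked a sample. Members and lists were chosen with earlier results of these data known.

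Counts were tested with edgeR 4.0.16 (R 4.3.3): TMM scaling, filterByExpr with a minimum count of 10, the quasi-likelihood test and Benjamini-Hochberg adjustment over all fragments tested. LPS was compared with saline within each ganglion's 24 libraries (terms for group and sex), the ganglia within 24 libraries of 1 treatment (time and sex), and the difference of LPS effects over 48. CPM levels are scaled over all 48 libraries. Of the 72 members, 34 were in no fit, with totals of 10 to 202 counts. Alternatives were DESeq2 1.42.0, total counts, miRNA library size, no filter, no sex term and leaving out libraries. The fits were also run on simulated counts, drawn with the same composition in every library apart from planted changes. That run does not speak to the choice of scaling.

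Members named were the 10 with the highest mean CPM, the 10 called members with the smallest adjusted p per comparison or, with none called, the 3 with the smallest unadjusted p, and the most abundant per start and type. In the ganglion comparison after LPS, added after the data were seen, 5 of these 10 are named; further names there, at base 30 and among calls gained with total counts were chosen after their values were seen. Replicates are separate mice per the labels. In 72 pairs of replicates the smallest chi-square per degree of freedom over fragments was 3.06, more than counting error alone gives. That value cannot tell separate mice from separate libraries of 1 mouse, so each library was counted as 1 replicate on the labels alone. Depth and its precision stand beside the first values.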

Additional observations from a re-analysis of the deposited data

Results flagged for a closer look

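Among the 156 groups of 4 libraries examined (3 summary measures and the 10 most abundant members in 12 groups), 8 had 1 library whose gap to the nearest other was large for the group's range; chance gives about 1 in 20. SCG 24 h saline replicate 3 had 71223.5 TMM-scaled CPM of tRF-32-6SXMSL73VL4YK, with its group otherwise between 11129 and 16595, and 76163.5 of tRF-31-6SXMSL73VL4YD, otherwise between 3193 and 6921. TG 7 d saline replicate 4 had 13150.8 of tRF-32-6SXMSL73VL4YK, otherwise between 3266 and 4159, and 6407.6 of tRF-31-6SXMSL73VL4YD, otherwise between 1325 and 1921. TG 7 d LPS replicate 1 had 11844.3 of tRF-32-6SXMSL73VL4YK, otherwise between 5543 and 6576. SCG 4 h saline replicate 1, the library highest in muscle miRNA, had 2094.9 of tRF-33-PW5SVP9N15WV0E, otherwise between 472 and 588. SCG 7 d saline replicate 2 had 4790 of tRF-31-PW5SVP9N15WV0, otherwise between 804 and 1375, and 3604.1 of tRF-32-PW5SVP9N15WVN, otherwise between 1010 and 1297. All 8 were the highest of their group. None of the 12 groups stood out in this way for the ratio of ends 33 and 34.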

How the results depend on the processing

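The 24 called members after saline were 22 to 25 when each library was left out in turn, and the 27 after LPS were 27 to 30. The filter was run anew each time, so the number tested could change and these counts are not on 1 base. The lowest after saline, without SCG 24 h replicate 3, was 22 of 34, beside 247 of 614 fragments in all. After LPS, leaving out SCG 7 d replicate 2 gave 29 of 39, beside 47.5% of all fragments. Only the 8 saline libraries of 4 h, 24 h and 7 d gave 12 of 29 (2 higher and 10 lower), 10 of 30 (6 and 4) and 12 of 26 (6 and 6) calls, beside 21.5%, 22.7% and 31.2% of all fragments. Base 34 was called lower for all 4 starts each time, and base 33 higher for 2, 4 and 4. With total counts and no TMM, tRF-33-XSXMSL73VL4YDN had a log2 fold change of 0.0445 after saline (edgeR adjusted p 0.875) in place of -0.61; leaving out any 1 of 8 libraries also ended its call (log2 -0.59 to -0.49, adjusted p 0.0505 to 0.0799): SCG 24 h replicate 3, SCG 7 d replicate 2, TG 4 h replicates 1 and 3, TG 24 h replicates 2 and 4, and TG 7 d replicates 1 and 2. Without SCG 24 h saline replicate 3, tRF-31-XSXMSL73VL4YD moved from -1.42 to -0.84 (adjusted p 0.0524). After LPS, the call of tRF-19-XSXMSL24 ended without any 1 of 11 libraries (log2 -0.85 to -0.73, adjusted p 0.0520 to 0.0844), that of tRF-31-XSXMSL73VL4YD without SCG 7 d replicate 1 (0.0636) and that of tRF-33-XSXMSL73VL4YDN without SCG 4 h replicate 1 or TG 4 h replicate 3 (0.0536 to 0.0613). The causes were not tested. LPS against saline gave 0 called members under every alternative run. No paired analysis was possible because the replicate numbers were assigned in accession order and the labels do not tie libraries to shared mice.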

Other observations

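The ratio of counts ending at base 33 to base 34 was also computed for 5′ fragments of other tRNAs, after the histidine ratio was seen, and is given as values with no test. For tRNA-AspGTC, which also has a queuosine-modified anticodon in mammals, the median ratio was 0.166 in SCG and 2.03 in TG (n = 24 each), with ranges of 0.0603 to 2.25 and 0.133 to 4.32. Its ratios rest on few counts at bases 33 and 34, 341 and 2052 in SCG and 799 and 482 in TG. Histidine had 96449 and 405769 in SCG and 239963 and 64722 in TG. The part of queuosine in these ratios was not tested. The median ratio was 1.13 and 4.93 for tRNA-GluTTC, 2.01 and 10.9 for tRNA-LysTTT, and 3.44 and 4.98 for tRNA-GluCTC. In tRNA-LysCTT it was 5.76 and 5.36, in tRNA-ValAAC 0.690 and 0.320, and in tRNA-GlyGCC 10 and 2.64, so the median was lower in TG in these 3. Each median is over 24 libraries, with the ratio taken as infinite where no count ended at base 34. Finite ratios numbered 20 for tRNA-GlyGCC in SCG and 23 for tRNA-LysTTT in TG. Counts at bases 33 and 34 in SCG were only 863 and 100 for tRNA-GlyGCC and 303 and 426 for tRNA-ValAAC.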
